A study of Mus musculus with 4 samples.

Results

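CpG-rich promoters of protein-coding genes made up 6400 of the 35796 accessible regions found by FAIRE-seq in EpRas cells (17.9%) and 18.1% of the 35433 regions on the 19 autosomes. FAIRE recovers the DNA that is not crosslinked to protein after formaldehyde fixation, so its peaks mark open chromatin. The regions were made by merging the peaks of the 4 deposited peak lists wherever they overlapped by at least 1 bp. A region was kept if it was autosomal, if a transcription start site (TSS) was found at most 2 kb from its middle and the nearest one belonged to a protein-coding gene, and if the 500 bp around its middle had a GC content of at least 50% and a CpG observed/expected ratio of at least 0.6. No signal value entered this rule. The 6400 regions belonged to 6015 genes, of which 5638 had 1 region, 370 had 2 and 7 had 3 or more. The other autosomal regions comprised 2885 at CpG-poor promoters of coding genes, 2304 at promoters of other gene types and 23844 distal regions.

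EpRas is a mouse mammary gland epithelial line (EpH4) that carries active H-Ras, and all 4 groups were cells of this line transfected with siRNA and collected at day 4. The groups were control siRNA without TGF-β (siControl, untreated), control siRNA with TGF-β3 at 1 ng/ml (siControl, TGF-β), and the same TGF-β treatment after knockdown of Etv4 and Etv5 with a first or a second set of siRNAs (siEtv4/5 set 1 and siEtv4/5 set 2). Etv4 and Etv5 are ETS family transcription factors that act downstream of Ras and ERK. Each group was 1 peak list of 1 cell line, so no spread between replicates was available, no test of a difference was possible, and the intervals given here cover counting error only. The extent of knockdown cannot be read from these libraries.

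Most housekeeping genes and many regulators of development start within CpG islands, stretches of DNA that escaped the loss of CpG dinucleotides because they stay unmethylated in the germline. Such promoters usually lack a TATA box, often fire from a cluster of start sites and in both directions, and carry sites for general factors such as NFY, SP and KLF proteins, ETS proteins, NRF1 and YY1. Active CpG island promoters keep a nucleosome-depleted stretch just upstream of the start site. Promoters of developmental regulators that are silent in a lineage are often held by Polycomb complexes, although their CpG content is high.

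The depth estimated from the lists was 15.3 M reads in the untreated library, 16.3 M in siControl with TGF-β, 17.3 M for set 1 and 20.7 M for set 2, and the lists held 14925 to 28754 peaks, fewest with set 2. Signal is given as the number of fragments stacked at the summit of a peak, or as fragments per M reads (FPM). Of 14 epithelial marker genes, 10 had a region within 500 bp of the first TSS in at least 1 library, against 4 of 9 mesenchymal markers. None of the 6 fibroblast, 7 haematopoietic, 5 endothelial, 4 neuronal and 3 hepatocyte markers had a region there. Of these markers 1 endothelial gene had a CpG-rich promoter and the others did not. Of all CpG-poor coding promoters, 11.5% had a region in any library. By library, in the order untreated, TGF-β, set 1 and set 2, the count of epithelial markers with a region was 10, 6, 4 and 3 and that of mesenchymal markers 3 in each. The promoter was CpG-rich in 6 of the 14 epithelial and 7 of the 9 mesenchymal markers. In the same order, 55.04%, 56.9%, 51.7% and 42.4% of all CpG-rich coding promoters had a region, and 9.17%, 9.98%, 8.50% and 6.46% of the CpG-poor ones.

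The sequences below are 150 bases around the summits of 9 of these promoters (GRCm38, on the strand of the gene, 5′ to 3′). The first 6 show the strong promoters of the class with the motifs that recur in it, and the last 3 are promoters with large ratios in the comparisons described further on. Capitals mark matches to 10 motifs searched on both strands: ETS (CCGGAAGT), SP/KLF (GGGGCGGGG), NRF1 (CGCATGCG), NFY (AGCCAAT), YY1 (AAGATGGCG), CRE (TGACGTCA), E-box (TCACGTGA), ZBTB33 (CTCGCGAG), AP1 (TGANTCA) and RUNX (TGTGGTT).
Haus6 (chr4:86612056-86612205, minus strand): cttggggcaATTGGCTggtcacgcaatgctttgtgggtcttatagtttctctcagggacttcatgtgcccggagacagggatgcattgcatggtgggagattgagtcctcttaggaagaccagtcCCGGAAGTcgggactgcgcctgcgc
Yif1a (chr19:5088269-5088418, plus strand): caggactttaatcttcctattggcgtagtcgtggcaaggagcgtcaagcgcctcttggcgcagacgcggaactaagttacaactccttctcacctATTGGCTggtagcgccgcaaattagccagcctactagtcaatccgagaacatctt
Hjurp (chr1:88277558-88277707, minus strand): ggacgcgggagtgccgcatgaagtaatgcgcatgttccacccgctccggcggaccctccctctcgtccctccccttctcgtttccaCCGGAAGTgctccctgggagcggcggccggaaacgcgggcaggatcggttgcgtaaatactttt
Tnfaip1 (chr11:78536242-78536391, minus strand): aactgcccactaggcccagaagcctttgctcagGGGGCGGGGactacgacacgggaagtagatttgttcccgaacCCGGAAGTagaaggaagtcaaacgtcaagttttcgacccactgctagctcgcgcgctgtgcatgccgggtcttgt
Rps6kb1 (chr11:86544785-86544934, minus strand): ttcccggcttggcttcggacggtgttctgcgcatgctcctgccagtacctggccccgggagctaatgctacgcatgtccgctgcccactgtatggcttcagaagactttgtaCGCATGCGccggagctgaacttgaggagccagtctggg
Pla2g6 (chr15:79328268-79328417, minus strand): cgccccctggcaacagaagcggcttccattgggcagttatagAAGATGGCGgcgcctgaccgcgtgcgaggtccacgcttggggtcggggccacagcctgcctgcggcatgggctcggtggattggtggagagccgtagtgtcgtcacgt
Adam17 (chr12:21373559-21373708, minus strand): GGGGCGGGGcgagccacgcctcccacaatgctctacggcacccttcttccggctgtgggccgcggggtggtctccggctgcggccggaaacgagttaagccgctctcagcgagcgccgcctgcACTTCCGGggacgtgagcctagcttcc
Actr10 (chr12:70937688-70937837, plus strand): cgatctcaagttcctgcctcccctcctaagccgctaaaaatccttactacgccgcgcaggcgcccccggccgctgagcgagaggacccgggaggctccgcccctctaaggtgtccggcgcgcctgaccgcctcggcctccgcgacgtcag
Nelfcd (chr2:174415679-174415828, plus strand): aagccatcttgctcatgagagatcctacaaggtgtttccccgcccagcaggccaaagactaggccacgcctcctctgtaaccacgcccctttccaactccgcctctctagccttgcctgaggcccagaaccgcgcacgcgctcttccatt
Haus6 encodes a subunit of the augmin complex of the spindle, and its stretch held a CCAAT box of NFY and an ETS match. Yif1a acts in transport from the endoplasmic reticulum to the Golgi, Hjurp loads the centromeric histone CENP-A, and Rps6kb1 encodes the S6 kinase downstream of mTOR. Adam17, a protease that sheds growth factors from the cell surface, held an SP/KLF and an ETS match. The stretches of Actr10, a dynactin subunit, and Nelfcd, which encodes a subunit of the pausing factor NELF, held none of the 10 motifs, although the 500 bp around the middle of their regions held NFY and SP/KLF at Actr10 and AP1 at Nelfcd.

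The CpG-rich promoter regions lay almost on top of the start sites. The middle of a region was at a median of 47 bp upstream of the TSS, with an interquartile range from -94 to -11 bp, and 5692 of 6400 (88.9%) were within 250 bp of it. Only 277 (4.33%) lay more than 500 bp away, against 1406 of 2885 (48.7%) at CpG-poor coding promoters. The class was set by the sequence around each region's own middle, so a region away from a CpG-rich TSS could count as CpG-poor. The part of this in the difference was not tested. The middle fell upstream of the TSS in 80.2% of the CpG-rich regions. By annotation it was intergenic in 3532, in the non-coding part of an exon in 1546, in an intron in 1253 and in a coding exon in 69. Regions had a median width of 228 bp, a median GC content of 62% and a median CpG observed/expected ratio of 0.82. In 831 regions (13.0%) the promoter lay between 2 coding genes that start in opposite directions within 1 kb of each other.

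**Figure D1:**
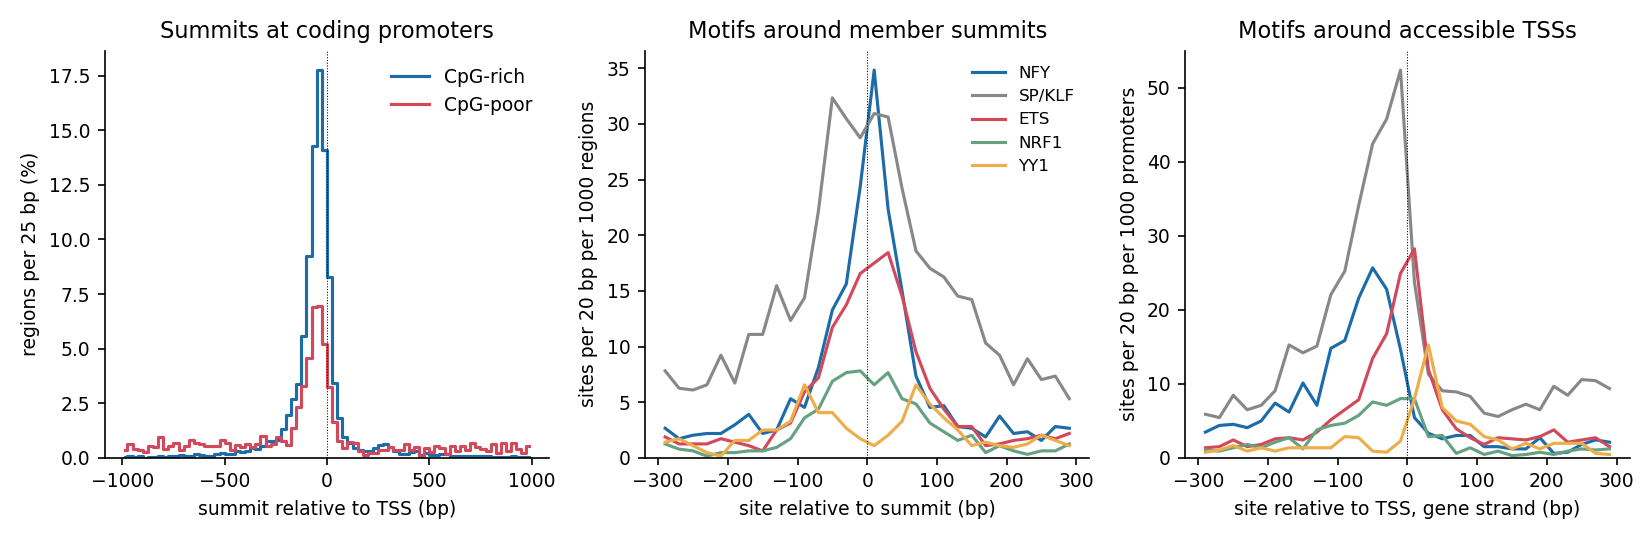
Left: position of peak summits relative to the nearest TSS (bp) at CpG-rich and CpG-poor coding promoters, as percent of the regions of the class per 25 bp. Middle and right: matches to 5 motifs per 20 bp, around the summits of the 6400 CpG-rich regions and around the TSS of the 6625 accessible CpG-rich promoters. The NFY curve peaks at the summit and upstream of the TSS. The YY1 curve is lower at the summit than at its flanks and peaks at 30 bp downstream of the TSS.

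A larger share of the CpG-rich promoters than of the other classes was called in each library. In the untreated library 5385 of the 6400 were called (84.1%, 95% Wilson interval 83.2 to 85.02), in siControl with TGF-β 5643 (88.2%, 87.4 to 88.9), after knockdown by set 1 5006 (78.2%, 77.2 to 79.2) and after knockdown by set 2 3996 (62.4%, 61.2 to 63.6). The share was highest with TGF-β alone and lowest with set 2, the library with the shortest list. All 4 libraries called 3439 of them (53.7%, 52.5 to 54.95), against 29.7% (28.03 to 31.4) of CpG-poor coding promoters and 23.2% (22.7 to 23.7) of distal regions. A single library called 868 (13.6%), against 36.3% of distal regions. The pattern next in number after a call in all 4 was a call in all but set 2, with 879 regions. This was 13.7% of the class, against 11.6% of all autosomal regions.

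**Figure D2:**
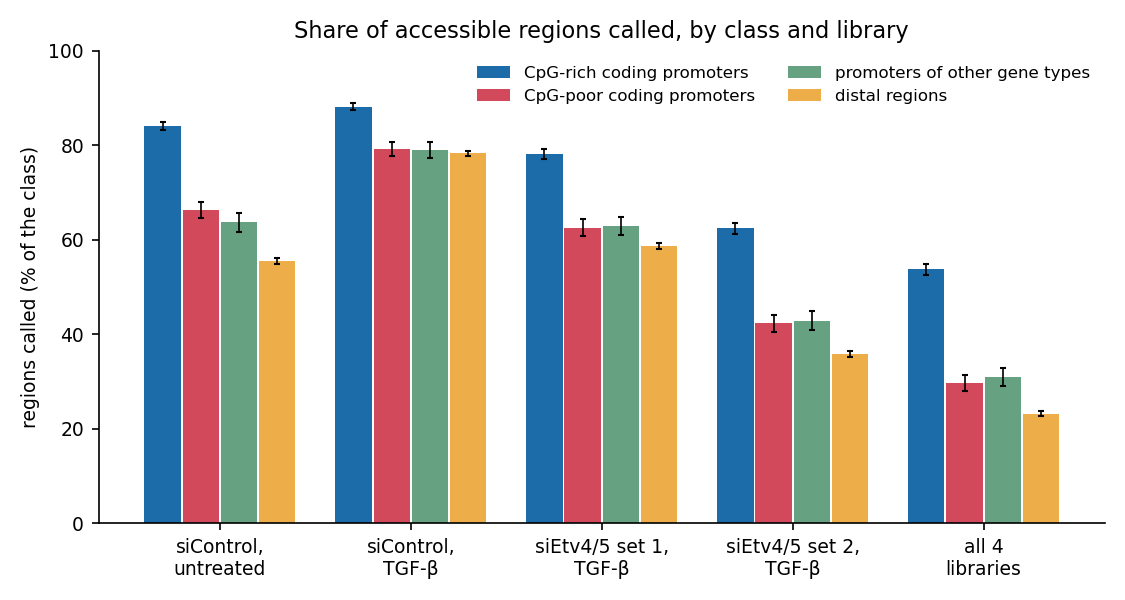
Share of regions called (percent of each class, bars, with 95% Wilson intervals for counting error) in each of the 4 libraries and in all 4, for 4 classes of autosomal region. The CpG-rich coding promoters are the highest bar in every group, from 62.4% with set 2 to 88.2% in siControl with TGF-β and 53.7% in all 4 libraries together.

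How often a CpG-rich promoter was called in all 4 libraries varied with its composition and on where it lay. The share was 59.2% (56.8 to 61.6) of 1648 regions with a GC content from 55 to 60%, and 30.0% (26.4 to 33.9) of 576 regions from 70 to 80%. The gap was widest with set 2, which called 68.0% of the former and 40.6% of the latter, whereas siControl with TGF-β called 88.7% and 79.5%. The part of GC recovery in library preparation in this was not tested. Regions whose middle was 100 to 200 bp from the TSS were called in all 4 libraries in 67.4% of 1083 cases, those within 50 bp in 48.6% of 2689 and those 1 to 2 kb away in 33.8% of 77. Promoters between divergent coding genes were called in all 4 in 60.1% (56.7 to 63.3) of 831 cases, against 52.8% (51.5 to 54.1) of the others. Just inside the limits of the rule, at a CpG observed/expected ratio of 0.6 to 0.65, 50.0% of 456 regions were called in all 4, and just outside it, at 0.55 to 0.6, 45.6% of 318.

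Of all autosomal coding genes in the annotation, 10573 had a CpG-rich sequence at their first TSS, and 6625 of these (62.7%, 61.7 to 63.6) had an accessible region within 500 bp in at least 1 library. The same count was 1175 of 10234 (11.5%, 10.9 to 12.1) for CpG-poor promoters. By library the CpG-rich share was 55.04% in the untreated cells, 56.9% in siControl with TGF-β, 51.7% under set 1 and 42.4% under set 2. The order of the libraries was the same for CpG-poor promoters, at 9.17%, 9.98%, 8.50% and 6.46%. Set 2 had the largest estimated depth (20.7 M reads) and the shortest list (14925 peaks). Over all autosomal regions called in all 4 libraries, its median log2 ratio of FPM to siControl with TGF-β was -0.71. A lower count in these bulk libraries can come from fewer cells with an open promoter, from less opening in each cell or from a difference between whole libraries. With 1 library per group these cannot be told apart.

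Most gene lists of basic cell functions held shares of open CpG-rich promoters above that of the whole class. All 34 of the aminoacyl-tRNA synthetase genes with a CpG-rich promoter had an accessible region (89.9 to 100%), as did 68 of 71 ribosomal protein genes (95.8%), 61 of 64 genes of the respiratory chain and ATP synthase (95.3%), 40 of 42 DNA replication genes (95.2%) and 57 of 60 spliceosome genes (95%). The share was 92.0% for immediate early genes (23 of 25), 91.4% for proteasome subunits (32 of 35), 91.3% for RNA polymerase II subunits and general factors (63 of 69), 88.6% for mitochondrial ribosomal proteins (62 of 70) and 85.1% for translation initiation factors (40 of 47). Zfp zinc finger genes, many of which encode KRAB repressors, were close to all CpG-rich promoters with 144 of 226 (63.7%), and replication-dependent histone genes had 30 of 52 (57.7%). The histone genes are near-identical copies, so their reads may have been split or lost in mapping. Developmental transcription factors of the homeobox, T-box and related families had 10 of 98 (10.2%, 5.64 to 17.8), the lowest share of the lists with more than 1 CpG-rich promoter.

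**Figure D3:**
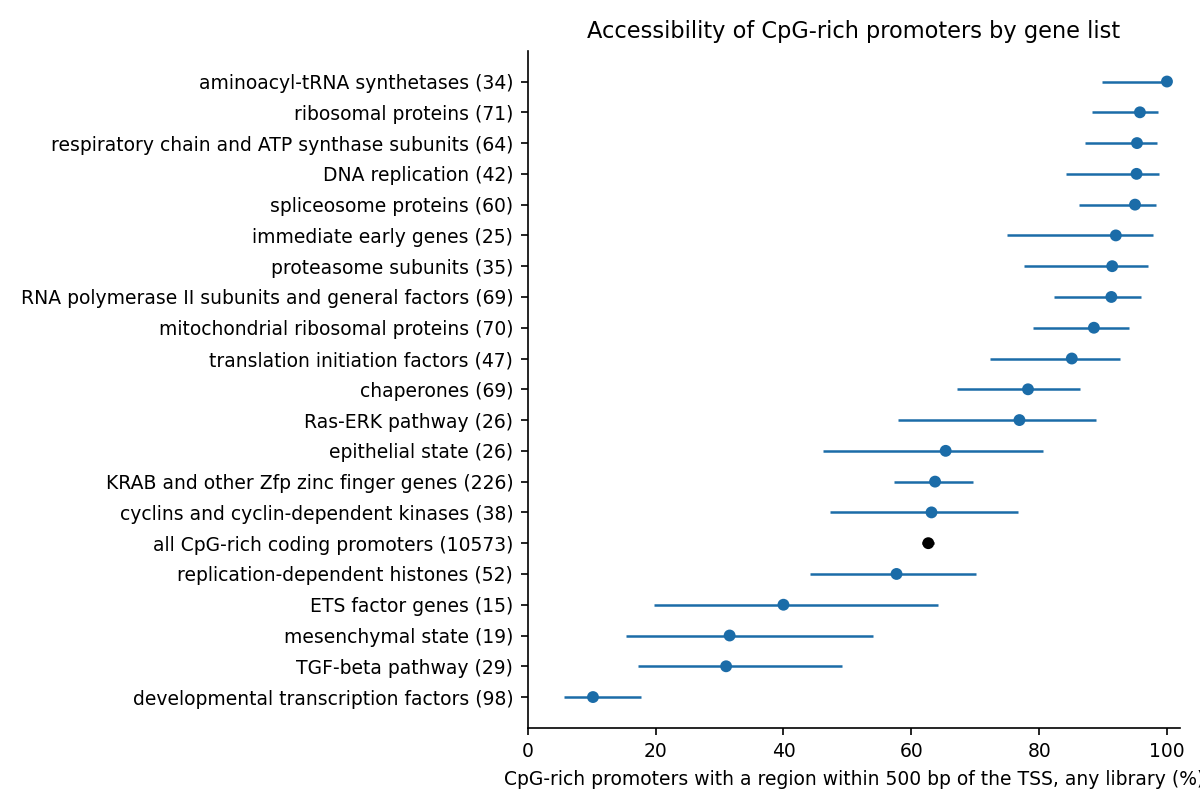
Percent of the CpG-rich promoters of each gene list (number of promoters in parentheses) with an accessible region within 500 bp of the TSS in any of the 4 libraries, with 95% Wilson intervals. Lists of basic cell functions lie above 85%, all CpG-rich coding promoters at 62.7% (black) and developmental transcription factors at 10.2%.

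The share of a list's regions called in all 4 libraries was 76.4% for the respiratory chain and ATP synthase (42 of 55), 69.0% for ribosomal proteins (40 of 58) and 46.4% for mitochondrial ribosomal proteins (26 of 56), with 53.7% over the whole class. For cyclins and their kinases it was 76.9% (20 of 26), although 24 of their 38 CpG-rich promoters were open (63.2%). It was 48.4% for Zfp genes, 45.0% for the Ras-ERK pathway (9 of 20) and 41.7% for developmental transcription factors (5 of 12). Ndufs8, a subunit of complex I, had 45, 55, 37 and 35 fragments in the order untreated, TGF-β, set 1 and set 2. Mcm3, part of the replicative helicase, had 38, 48, 39 and 30 fragments in that order. Rpl3 of the large ribosomal subunit had 47, 54, 38 and 36 fragments. In these 3 promoters the siControl library with TGF-β was highest and set 2 lowest. Set 2 was below siControl with TGF-β in FPM at 98.1% of the 3439 regions called in all 4 libraries. Over all 10538 autosomal regions called in all 4, the share was 97.3%. Cdk1, the kinase that drives entry into mitosis, had 27, 46, 41 and 32 fragments, with the untreated library lowest in fragments and set 2 lowest in FPM.

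Of the 25 immediate early genes with a CpG-rich promoter 23 were open within 500 bp of the TSS (92.0%). Up to 2 kb from a TSS the list had 29 regions of this class, of 25 genes, of which 21, 23, 21 and 11 were called in the 4 libraries and 11 in all 4 (37.9%). The shares of the whole class were 84.1%, 88.2%, 78.2% and 62.4% in the 4 libraries and 53.7% in all 4. Jund, an AP-1 subunit, had 42, 51, 44 and 29 fragments. The serum response factor Srf had 44, 33, 35 and 29 fragments, with the untreated library highest. Promoter regions of Junb (38 fragments), Ier2 (33) and Fosl1 (30) were called only in siControl with TGF-β, and those of Myc (35) and Fos (26, with a further region of 21 upstream) only with set 1. These AP-1 subunits and growth response genes are induced rapidly by growth factors. In the library that called them, the local background at Junb, Fosl1 and Myc was 5.39, 4.06 and 4.87 times the genome-wide floor, which raises the number of fragments needed for a call, and at the Fos regions it was 1.73 and 1.71, near the median of the class. A region without a call can still hold fragments below the threshold.

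Of 29 TGF-β pathway genes with a CpG-rich promoter, 9 were open within 500 bp of the TSS (31.0%, 17.3 to 49.2). Up to 2 kb from a TSS the list had 13 regions of this class, of 13 genes, and 2 of them were called in all 4 libraries. Id2, an inhibitor of basic helix-loop-helix factors, had 23, 25, 28 and 22 fragments, and Smad1, a mediator of BMP signals, had 19, 29, 27 and 17. The receptor gene Tgfbr1 was called at 24, 29 and 21 fragments in the untreated, TGF-β and set 1 libraries and not with set 2. Tgfbr2 was called at 19 fragments with TGF-β alone and with set 1, and Smad3 at 19 in the untreated and set 1 libraries. The lowest count called where the background was at its genome-wide floor was 11 to 13 fragments in the 4 libraries. In the Ras-ERK pathway 20 of 26 promoters were open (76.9%). Mapk3, which encodes the kinase ERK1, was called in the untreated library alone, with 20.

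Of 26 epithelial state genes with a CpG-rich promoter 17 were open within 500 bp of the TSS (65.4%, 46.2 to 80.6), and of 19 mesenchymal state genes 6 (31.6%). Up to 2 kb from a TSS there were 18 epithelial regions, called 12, 11, 8 and 6 times in the 4 libraries and 3 times in all 4, and 6 mesenchymal regions, called 5, 4, 3 and 3 times and 2 times in all 4. Of the whole class, 84.1%, 88.2%, 78.2% and 62.4% were called in the 4 libraries and 53.7% in all 4. Cdh1, which encodes E-cadherin, had 21 fragments in the untreated cells and 21 with set 2, and no call in the other two libraries. Esrp2, a splicing regulator of epithelial cells, had 22, 23 and 24 fragments and no call with set 2. Grhl2, a regulator of epithelial junction genes, was called in the untreated library alone, with 25 fragments. Calls in the other direction were those of Sh3yl1, with 22, 24 and 25 fragments in the 3 libraries with TGF-β and none untreated, Esrp1, another splicing regulator, with 22 in siControl with TGF-β alone, and Cgn, which encodes the tight junction protein cingulin, with 25 under set 1 alone. F11r, a junction adhesion molecule gene, was called in every library, with 25, 44, 35 and 28. The calls of the epithelial genes named here thus followed no single order of the libraries, while those of all 18 regions fell from 12 untreated to 6 with set 2. Snai1, a repressor of E-cadherin, had 26, 36, 25 and 29 fragments, and Snai2, its relative, was called in the untreated library alone with 22. Zeb2, a further repressor of E-cadherin, was called in siControl with TGF-β (22) and under set 2 (18). Fn1, which encodes fibronectin, had an accessible region within 500 bp of a CpG-rich TSS in all 4 libraries, but no region of it met the rule for this class, and neither did any of Cdh2, Gapdh or Etv4. The Etv5 promoter had 29, 37, 34 and 31 fragments at its main region, and a second region 1195 bp downstream of the TSS was called only in siControl with TGF-β, with 27.

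The strongest CpG-rich promoter was that of Hjurp, with 89, 101, 93 and 72 fragments in the order untreated, TGF-β, set 1 and set 2. Second was H2-D1, a class I histocompatibility gene with close relatives that can share its reads, with 57, 72, 50 and 60. Osbp, a sterol transfer protein, had 60, 65, 55 and 47 fragments. Haus6 followed with 57, 74, 48 and 41, then Uaca with 62, 71, 53 and 32 and Stip1, the co-chaperone that links Hsp70 and Hsp90, with 54, 65, 52 and 47. Ankrd54 had 46, 57, 58 and 52 fragments, and Yif1a 54, 51, 48 and 46. Hspa5, the chaperone BiP of the endoplasmic reticulum, had 46, 53, 51 and 44, and Sap130, a subunit of the Sin3A corepressor complex, 47, 60, 43 and 41. In FPM, set 2 was lowest in 9 of these 10 and siControl with TGF-β highest in 9. The medians over all autosomal regions called in all 4 had the same order. Their log2 ratio was 0.17 for TGF-β against untreated, and -0.26 for set 1 and -0.71 for set 2 against siControl with TGF-β.

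The 10 strongest promoters also lay in stretches of high read density. At Hjurp the local background was 5.44 to 5.75 times the genome-wide floor in the 4 libraries, and its fold enrichment, the authors' ratio of summit to local background, ranked 302 of 3439. Yif1a was the only promoter among the first 10 by FPM and the first 10 by fold enrichment. The highest mean fold enrichment was at Thop1, a peptidase, with 13.8, 16.8, 18.1 and 13.1, and the next at Cdca8, a subunit of the chromosomal passenger complex, with 18.6, 17.6, 14.3 and 9.66. These 2 were named after their values were seen. Over the 3439 regions called in all 4 libraries, the median was 27, 31, 27 and 24 fragments.

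A match to at least 1 of the 10 motifs was present in the 500 bp around the middle of 4267 CpG-rich regions (66.7%). SP/KLF was the commonest with 29.4% of regions, followed by NFY with 16.0%, ETS with 13.3%, NRF1 with 6.56%, AP1 with 6.53%, YY1 with 6.13%, CRE with 5.30%, RUNX with 5.14%, ZBTB33 with 3.48% and the E-box with 2.55%. In 500 bp around the TSS of all 20807 autosomal coding genes the same letters occurred in 18.8% for SP/KLF, 10.6% for NFY, 6.17% for ETS, 2.81% for NRF1, 9.23% for AP1, 3.00% for YY1, 2.77% for CRE, 7.24% for RUNX, 1.61% for ZBTB33 and 1.36% for the E-box. Distal regions held AP1 in 55.4%, RUNX in 16.9% and ETS in 0.818%. A TATA box (TATAAA on the strand of the gene, 20 to 40 bases before the nearest TSS) was found for 46 CpG-rich regions (0.719%), against 2.29% of all coding TSSs. Among them were Junb, Ccn1 and Id1. Motifs with CpG in their letters are commoner in CpG-rich sequence of any kind, which a match does not take into account.

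CpG-rich promoters with a region had a median GC content of 63.8% around the TSS, and those without one 68.4%. In 500 bp around the TSS, ETS occurred in 14.3% (13.5 to 15.1) of the 6625 CpG-rich promoters with a region and in 4.43% (3.83 to 5.12) of the 3948 without, NFY in 15.5% against 6.46%, NRF1 in 6.57% against 2.33% and YY1 in 7.03% against 2.56%. For SP/KLF the order was the other way round, with 29.2% (28.1 to 30.3) of the open promoters and 35.5% (34.0 to 37.0) of the others. AP1 was at 5.07% and 4.28%.

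The motifs also differed in where they lay. Matches to NFY were 10.9 times as dense within 40 bp of the summit as beyond 200 bp, those to ETS 10.0 times, to NRF1 11.05 times, to CRE 26.5 times and to SP/KLF 4.25 times. For AP1 the ratio was 1.497 and for RUNX 0.796. For YY1 it was 1.6, with 1.88 sites per 1000 regions per 20 bp within 40 bp and 1.17 beyond 200 bp. YY1 matches were sparser at the summit than at its flanks. The 20 bp just downstream of the summit held 1.09 sites per 1000 regions, and the bins at -90 and 70 bp both held 6.56. Relative to the TSS, NFY matches had a median position of 62 bp upstream (interquartile range -115.5 to -24 bp), SP/KLF 35 bp upstream, ETS 7.5 bp upstream and YY1 30 bp downstream.

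Of the 10 motifs, NFY showed the widest gap in calls between regions with and without it. Of the 1025 CpG-rich regions with an NFY match 746 were called in all 4 libraries (72.8%, 69.97 to 75.4), against 50.1% (48.8 to 51.4) of the 5375 without, at a median GC content of 61.4 and 62.2%. By library, 91.9%, 95.7%, 89.5% and 77.3% of the regions with NFY were called, and 82.7%, 86.7%, 76.1% and 59.6% of those without. With the 3439 regions split by mean FPM into 5 groups of equal size, NFY was held by 11.9% of the weakest group, then 17.7%, 22.1% and 24.1%, and 32.6% of the strongest. Regions called in 1, 2, 3 and 4 libraries held NFY in 5.88%, 9.97%, 11.6% and 21.7%. The corresponding shares for ETS were 11.5%, 10.4%, 13.7% and 14.3%, and regions with ETS were called in all 4 in 57.9% (54.5 to 61.2) of cases against 53.1% (51.8 to 54.4). Regions with SP/KLF were called in all 4 in 50.8% (48.5 to 53.1) against 54.96% (53.5 to 56.4), at a median GC content of 64.4 and 61.0%.

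The first comparison asked which promoters change with TGF-β in cells with control siRNA. Calls that were present in 1 of the libraries took a smaller share of CpG-rich promoters than of all regions. Of 6132 promoters called in either library, 747 (12.2%, 11.4 to 13.0) were called with TGF-β alone, where the background over all autosomal regions was 32.3%, and 489 (7.97%, 7.32 to 8.68) in the untreated library alone, with a background of 12.4%. The promoters called in the TGF-β library alone had a median of 21 fragments there, and those called in both had 28. They included Junb with 38 fragments, a second region of Klhl9, a Cullin-3 adaptor, with 37 beside a main region called in 3 libraries, and Ccn1, a secreted matrix protein gene, with 36. Those called in the untreated library alone among the 4 were led by Sfi1, which encodes a centrin-binding protein, with 64 fragments, then Sfr1, a DNA repair gene, with 38 and Rnasek with 34. At Sfi1 the local background was 21.6 times the floor and the fold enrichment 2.76, and an adjoining Sfi1 region was called with 74 fragments in the untreated library and 64 with TGF-β. At Sfr1 a neighbouring region at -308 bp from the TSS was called with TGF-β alone and under set 1, at 23 and 27 fragments.

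At the 3439 CpG-rich promoters called in all 4 libraries, signal was compared as a log2 ratio of FPM, centred on the median of all 10538 autosomal regions called in all 4. That median was 0.17 for TGF-β against untreated, -0.26 for set 1 and -0.71 for set 2 against siControl with TGF-β. With TGF-β the CpG-rich promoters had a median centred ratio of -0.08, with 90% of them between -0.63 and 0.42, while distal regions had 0.06. The median of the promoters was thus below that of all regions but above 0 without centring, at 0.09, and it was -0.05 on the scale of fold enrichment. Of the promoters 39.3% (37.7 to 40.9) lay above the median of all regions, against 56.8% (55.5 to 58.1) of the distal regions and 46.4% (43.1 to 49.7) of CpG-poor promoters. The median of the promoters was below 0 on each of the 19 autosomes, from -0.15 on chromosome 6 to -0.06 on chromosome 7, whereas that of the other regions was above 0 on 18.

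Changes with TGF-β were small at most promoters called in all 4 libraries, a set that leaves out promoters that gained or lost a call. Of the 3439, 3 were at least 2-fold higher (background over all regions 0.313%) and 6 at least 2-fold lower (0.247%). At 1.5-fold 63 were higher, 1.83% against a background of 4.8%, and 214 lower, 6.22% against 4.54%. Nmbr, which encodes the neuromedin B receptor, had 15 fragments in the untreated library and 41 with TGF-β, a centred ratio of 2.28 (exact 95% binomial interval 1.23 to 4.43). The values at Tvp23b, a Golgi membrane protein gene, were 15 and 40, a ratio of 2.22 (1.201 to 4.33), and at Adam17 16 and 39, a ratio of 2.03 (1.11 to 3.89). Tprn had 18 and 40 fragments and the DNA helicase gene Recql5 27 and 60, both at a ratio of 1.85. With set 1 and set 2, Adam17 had 19 and 20 fragments. Its centred ratios to siControl with TGF-β were 0.55 (0.300 to 0.975) and 0.659 (0.364 to 1.16). Recql5 had 33 and 35, at ratios of 0.621 (0.393 to 0.965) and 0.75 (0.480 to 1.16). Nmbr had 34 and 27, at 0.936 and 0.847, and Tvp23b 32 and 19, at 0.903 and 0.611, with every interval reaching 1. These promoters were picked for a high value in siControl with TGF-β, which favours lower values in the other libraries.

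In the other direction, Mrfap1 had 33 fragments in the untreated library and 16 with TGF-β, a centred ratio of 0.404 (0.208 to 0.755). Pdpk1, the kinase that activates AKT, had 40 and 20 fragments, a ratio of 0.417 (0.231 to 0.730), and Txnip, an inhibitor of thioredoxin and of glucose uptake, 33 and 18, a ratio of 0.455 (0.241 to 0.831). Hirip3, a histone chaperone gene, had 29 and 16 fragments and Bmt2 32 and 19. In all 5 promoters the untreated library was highest in FPM among the 4, which their choice by a high untreated value favours. Each of these intervals is that of a promoter picked as extreme among many, so it describes counting error and is no test.

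**Figure D4:**
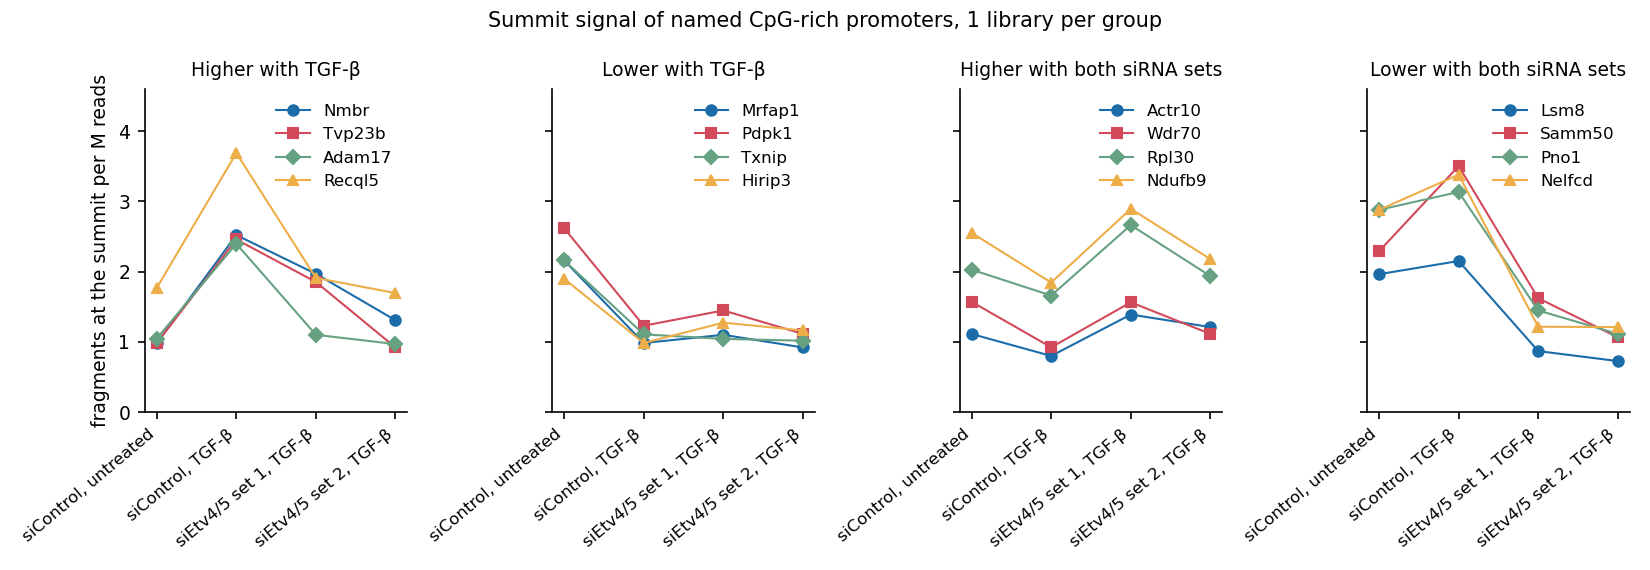
Fragments at the summit per M reads, not centred, for 16 CpG-rich promoters in the 4 libraries (1 point per library, no replicates), in 4 panels by comparison. Nmbr, Tvp23b, Adam17 and Recql5 peak in siControl with TGF-β, Mrfap1, Pdpk1, Txnip and Hirip3 are highest untreated, and set 2 is low in most, with a median over all regions that was 0.71 lower on the log2 scale. The promoters were picked by the ratios of these comparisons.

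The whole class had a median centred log2 ratio of -0.08 with TGF-β, with 1.83% of promoters at least 1.5-fold higher and 6.22% lower, and the gene lists are read beside it. The median centred log2 ratio with TGF-β was below 0 for 16 of the 20 lists with a region called in all 4 libraries, and each list's value is 0.17 higher without centring, which leaves 4 below 0. It was -0.20 for mitochondrial ribosomal proteins, with 1 of 26 regions at least 1.5-fold higher and 1 lower, -0.18 for the respiratory chain and ATP synthase (0 higher and 5 lower of 42), -0.17 for aminoacyl-tRNA synthetases (0 and 3 of 18) and -0.08 for ribosomal proteins (0 and 2 of 40). Immediate early genes had a median of 0.03, with 0 higher and 1 lower of 11. The 1 that was lower was Srf, a promoter with a centred log2 ratio of -0.68.

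The other comparisons asked which promoters differ after knockdown of Etv4 and Etv5 in the presence of TGF-β. Both siRNA sets were compared with the same siControl library with TGF-β, so a deviation of that library moves both results. With set 1, 1009 of 6015 promoters (16.8%, 15.8 to 17.7) were called in siControl alone, against a background of 30.0%, and 372 (6.18%, 5.60 to 6.82) with set 1 alone, against 10.6%. With set 2, 1865 of 5861 (31.8%, 30.6 to 33.0) were called in siControl alone, against 50.7%, and 218 (3.72%, 3.27 to 4.24) with set 2 alone, against 5.0%. The promoters without a call with set 2 had a median of 22 fragments in siControl, and those called in both 30. Among the 4 libraries, set 1 alone called Myc (35 fragments), K230010J24Rik (34) and a region of Brd2, a bromodomain protein gene (33), and set 2 alone called Dnmbp (28) and Ift43 (27).

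At promoters called in all 4 libraries the median of the class was close to that of all regions with either set. The median centred log2 ratio was 0.01 under set 1 and -0.01 under set 2, and 50.4% (48.7 to 52.1) and 49.1% (47.4 to 50.8) of the promoters lay above the median of all regions. With set 1, 5 promoters were at least 2-fold higher (background 0.171%) and 3 lower (0.142%). At 1.5-fold 121 were higher (3.52% against 3.61%) and 121 lower (3.52% against 3.59%). With set 2, 12 were at least 2-fold higher (background 0.38%) and 5 lower (0.104%), and at 1.5-fold 148 were higher (4.30% against 5.56%) and 171 lower (4.97% against 4.55%). Without centring, 666 promoters were at least 2-fold lower with set 2 and none higher. The median log2 ratio without centring was -0.71 for the 3439 promoters and -0.71 for all autosomal regions called in all 4. The share of all regions past 2-fold without centring was not counted.

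Of the 3439 promoters called in all 4 libraries, 42 were at least 1.5-fold higher with both sets and 29 lower. The counts over all 10538 autosomal regions were 159 and 94. Actr10 was higher with both sets, with 13 fragments in siControl with TGF-β, 24 under set 1 and 25 under set 2. Its centred ratios were 2.08 (1.02 to 4.46) and 2.47 (1.22 to 5.26), and the untreated library had 17. Wdr70 had 15, 27 and 23 fragments in those libraries and 24 untreated. For Rpl30 of the large ribosomal subunit the counts were 27, 46 and 40, with 31 untreated, and for Ndufb9 of complex I 30, 50 and 45, with 39 untreated. Traf6, a ubiquitin ligase of innate immune signalling, had 12, 19 and 19, with 20 untreated. In each of these 5 promoters siControl with TGF-β had the lowest FPM of the 4 libraries. Their choice as higher than that library with both sets favours this.

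Nelfcd was the promoter with the lowest centred ratio with set 1. It had 55 fragments in siControl with TGF-β and 44 untreated, against 21 with set 1 and 25 with set 2. The ratios were 0.431 (0.248 to 0.724) and 0.584 (0.349 to 0.954). Lsm8, which binds U6 snRNA, had 35 in siControl and 15 with either set, Samm50 of the mitochondrial outer membrane 57, 28 and 22, Lcmt1, a methyltransferase of protein phosphatase 2A, 41, 21 and 18, and the ribosome assembly factor gene Pno1 51, 25 and 23. The intervals of Lcmt1 reached 1 with both sets (0.325 to 1.001 and 0.305 to 1.005), as did that of Lsm8 with set 2 (0.280 to 1.035). In these 5 promoters siControl with TGF-β had the highest FPM of the 4 libraries, which their choice as lower than that library with both sets favours. In Nelfcd, Lsm8 and Pno1 the untreated library was close to siControl with TGF-β, with 44, 30 and 44 fragments.

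Other promoters had large ratios with 1 of the sets. With set 1, Angel1 had 31 fragments against 15 in siControl (ratio 2.33, 1.22 to 4.65) and 19 with set 2 (ratio 1.63, 0.784 to 3.44), and Stxbp2, an exocytosis gene, 30 against 16 and 17 with set 2. With set 2, Tomm22, the mitochondrial import receptor, had 39 against 23 (ratio 2.18, 1.27 to 3.82) and 28 with set 1, and Exoc1 of the exocyst 40 against 24 and 20 with set 1. Dtymk, which makes thymidine diphosphate, had 17 against 49 (ratio 0.446, 0.241 to 0.788) and 35 with set 1, and Sdhc of succinate dehydrogenase 15 against 39 and 24 with set 1. The difference between the 2 sets at these promoters was not tested.

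The ratios with both sets varied by chromosome. On chromosome 14 the 77 promoters called in all 4 libraries had a median of 0.18 with set 1 and 0.24 with set 2, and the 151 other regions of that chromosome had 0.12 and 0.22. With set 2, 81.8% of the promoters there lay above the median of all regions, 14 were at least 1.5-fold higher and 0 lower. On chromosome 12, where Actr10 lies, the medians of the 110 promoters were 0.08 and 0.13, and on chromosome 3 those of 130 promoters were 0.09 and 0.11. On chromosome 4 the 216 promoters had -0.05 and -0.07 and the 454 other regions -0.11 and -0.11. With TGF-β against untreated the promoters of chromosomes 12 and 14 had -0.09 and -0.07, near the -0.08 of all. The 19 chromosome medians had a standard deviation of 0.06 under set 1 and 0.09 under set 2, and of 0.03 in the comparison with untreated cells. The local background moved with them: at the promoters of chromosome 14 its median was 1.31, 1.28, 1.39 and 1.40 times the floor in the order untreated, TGF-β, set 1 and set 2, whereas on chromosome 4 it was 1.70, 1.65, 1.49 and 1.36. Its part in the ratios, and that of chromosome copy number, was not tested. Centred within each chromosome, an alternative chosen after seeing the data, 6 promoters with set 1 and 13 with set 2 were past 2-fold in place of 8 and 17.

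**Figure D5:**
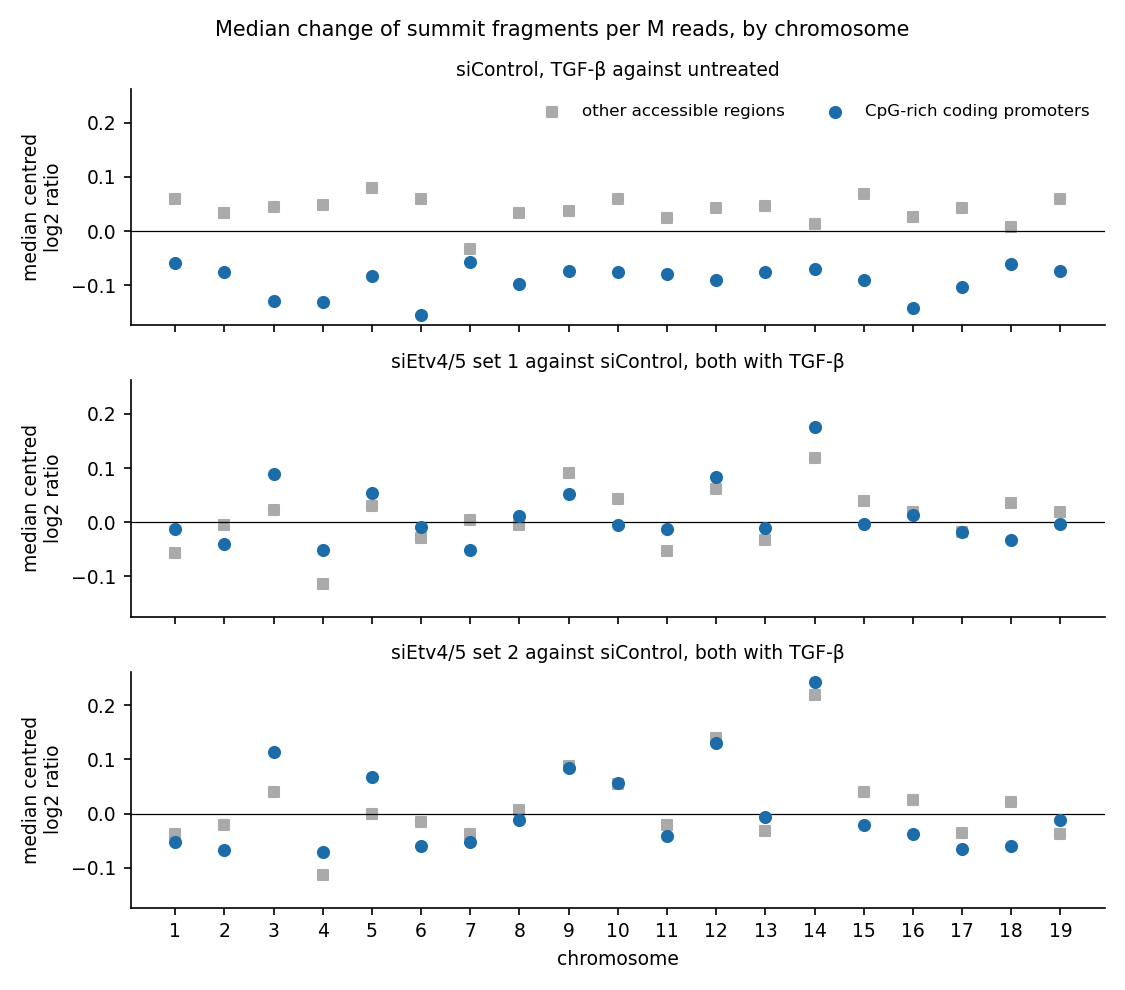
Median centred log2 ratio of summit FPM on each of the 19 autosomes for the CpG-rich promoters (circles) and the other accessible regions (squares) called in all 4 libraries, in the 3 comparisons. The circles lie below 0 on every chromosome with TGF-β, and both symbols are highest on chromosome 14 with set 1 and set 2.

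Promoters with an ETS match, the motif that Etv4 and Etv5 can bind along with other ETS factors, were compared with the rest. The 492 such promoters called in all 4 libraries had a median centred log2 ratio of 0.01 with set 1 and 0.03 with set 2, against 0.01 and -0.01 for the 2947 without. With set 1, 16 of the 492 were at least 1.5-fold higher and 20 lower, against 105 and 101 of the 2947. With set 2, 29 of the 492 were higher and 26 lower, against 119 and 145 of the 2947. Promoters with 2 ETS matches numbered 99, of which 59 were called in all 4 libraries, with medians of -0.05 and 0. By library, 87.1%, 89.1%, 80.7% and 66.8% of the 850 promoters with an ETS match were called, against 83.7%, 88.0%, 77.8% and 61.8% of those without. With TGF-β the median was -0.10 with and -0.08 without the match. At the promoter of Gabpa, an ETS factor gene that holds ETS letters of its own, the fragments were 34, 28, 30 and 27 in the order untreated, TGF-β, set 1 and set 2.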

How the data were processed

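Accessible chromatin had been measured by FAIRE-seq in EpRas cells 4 days after the start of treatment, and 1 deposited peak list per group was used. The study describes biological replicates, and the lists may be made from pooled reads. Libraries were read on an Ion Proton, and the authors trimmed the reads, mapped them to mm10 with Bowtie and called peaks with MACS2 (version 2.1.0 per the submitters' processing notes), keeping q-values under 0.0001. For each peak the deposited files hold a fold enrichment (the authors' ratio of summit to local background, with a pseudocount of 1), -log10 p-values and -log10 q-values, a summit position and a whole-number score computed by the authors' caller from q. Genomic input was not used here.

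Fragments at each summit and the local background were solved from the deposited fold enrichment and Poisson -log10 p-value, and gave whole fragments in 100% of peaks, to within 0.000331 in -log10 p. This step and the centred ratio were tested on simulated data. Depth was estimated as the lowest background times an effective genome of 1.87 Gb, divided by the shortest peak width (125 to 134 bp) as fragment length. Peaks were merged at 1 bp overlap, with the highest peak of each library standing for the region. The members, 11 motifs and 21 gene lists were chosen with earlier results of these data known. TSSs came from GENCODE vM21 basic and sequences from RefSeq's GRCm38, which has the coordinates of mm10. In genome-wide counts a gene had 1 promoter, at its first TSS. Shares carry 95% Wilson intervals and ratios exact binomial intervals of the fragments. Both cover counting error only and leave out PCR duplicates and the scaling between libraries. Named promoters were the 10 strongest, the 5 highest and 5 lowest of each comparison with an interval on one side of the median, the 5 in each direction past 1.5-fold with both sets, the 3 strongest called in 1 library, the 2 strongest of each gene list, up to 8 unevenly called members of the signalling and cell state lists, and Etv4, Etv5, Gapdh, Cdh1, Cdh2, Fn1 and Esrp2. A few promoters that this rule names are not reported here. Analyses used Python 3.11.15 with numpy 2.4.6, pandas 2.3.3 and scipy 1.17.1. Alternatives covered merging, thresholds, list length, promoter window, CpG limits, scale and centring.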

Additional observations from a re-analysis of the deposited data

Results flagged for a closer look

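CpG-rich promoter regions on the X chromosome lay outside the autosomal set described and numbered 89. They were flagged as a signal in data that the comparisons did not use. In the untreated library 54 of them were called, in siControl with TGF-β 65, under set 1 52 and under set 2 22, and 14 were called in all 4 libraries (15.7%, 95% Wilson interval 9.61 to 24.7), against 53.7% of the autosomal regions. Of 290 X-linked coding genes with a CpG-rich promoter, 100 (34.5%, 29.2 to 40.1) had a region within 500 bp of the TSS, against 62.7% on the autosomes.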

How the results depend on the processing

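No paired analysis was possible because each group had 1 peak list. Of 44 alternatives, 25 left a value within its interval or a count within 1.5 times. Stricter CpG limits (GC of at least 55% and observed/expected of at least 0.75) left 4153 regions. The share called in all 4 libraries was 47.2% at equal list length. Leaving out a library in turn, which was chosen after seeing the data, gave a share called in the other 3 of 57.7% to 68.1%, highest without set 2. Promoters past 2-fold numbered 9 with TGF-β against untreated, 8 for set 1 and 17 for set 2. At equal list length they were 1, 1 and 8, on the scale of fold enrichment 3, 3 and 4, and at 1.5-fold 277, 242 and 319. With stricter CpG limits 4 remained past 2-fold with TGF-β. Without centring 32 were past it with set 1 and 666 with set 2. The median log2 ratio over all regions was -0.26 and -0.71 in these comparisons. Searched in 200 bp around the summit, 53.4% of regions held a motif. The cause of these changes was not tested beyond the smaller number of regions that the stricter and equal lists hold. At a median of 24 to 31 fragments per promoter, ratios near 1.5-fold had intervals that reached 1, as at Srf with TGF-β (0.625, 0.386 to 1.004), so smaller changes of single promoters were not detectable at this depth.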
